A study of Homo sapiens with 2 samples.

Results

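The nuclear and snoRNA host lncRNAs (long noncoding RNAs) described here were chosen by symbol, namely 3 nuclear lncRNAs (MALAT1, NEAT1 and TUG1) and 5 hosts of small nucleolar RNAs (snoRNAs), which are DANCR, GAS5, SNHG1, SNHG5 and SNHG8. They are 8 of the 64081 rows of the deposited count list, and each of the 8 has a row. LNCaP is an established prostate carcinoma cell line, and for these libraries the cells spent their last 48 h in medium with 10% charcoal stripped FBS, that is, without androgen. Strand-oriented read pairs of 75 nt were made from the poly(A)+ RNA of 2 biological replicates, both labelled as controls, and the list gives both replicates in 1 column of counts. There is 1 condition and no group with androgen to compare it with, so replicate error is not known for any value and nothing was tested between conditions. Intervals are exact 95% intervals (Poisson for counts, binomial for shares), and they reflect counting error alone, because several pairs can stem from 1 molecule through PCR and no molecular identifiers were used. A count of 0 is said to allow up to 3 counts, a set limit below the 3.69 at which the exact interval ends. Limits per kb and folds for a count of 0 use these 3 counts.

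MALAT1 lies in nuclear speckles, NEAT1 is the RNA around which paraspeckles assemble, and TUG1 is a widely transcribed lncRNA found in the nucleus and the cytoplasm. The snoRNA hosts carry snoRNAs in their introns, which are released as the host is spliced, while the spliced host RNA is exported and is commonly degraded during translation by nonsense-mediated decay. All 8 are usually regarded as readily detected in cultured human cell lines.

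The strand of counting bears on every value. The methods give a library type in which read 1 follows the transcript (fr-secondstrand) and a counting setting that places pairs on genes against the direction of read 1 (reverse). If both hold, the row of a lncRNA counts pairs transcribed from the other strand, and pairs from the lncRNA's own strand are listed only where a gene is annotated opposite it. Values are therefore called listed counts, and each lncRNA is set beside the genes whose exons lie opposite its exons. A level of the lncRNA itself cannot be read from its own row under these settings. Counts per kb use the union of annotated exons on GRCh37 as the exonic length.

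In all, 9495309 pairs were counted on genes, 6.39% of 148700190 uniquely placed pairs, and 3 rows held 48.5% of them. Of 8 markers of prostate luminal cells, 7 had at least 10 counts (44.2% of all 19404 protein-coding rows and 24.3% of all rows did), with KLK3 at 18, while 4 markers of other cell types with a row lay between 0 and 6. HOXB13 had 8. The highest counts were those of KRT8 (6947) and KRT18 (595), which lie opposite each other over 525 exonic nt. These marker counts are listed under the same strand settings, and if these hold, they are not mRNA levels of the markers.

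The summed listed count of the 8 lncRNAs was 169, or 0.00178% of the pairs on genes (0.00152% to 0.00207%). NEAT1 had 79 counts, MALAT1 66, GAS5 12, SNHG5 10 and DANCR 2, and TUG1, SNHG1 and SNHG8 had 0. MALAT1 and NEAT1 together with TUG1 held 145 of these counts and the 5 snoRNA hosts 24, the latter over 38.305 kb of exons. In contrast, the rows opposite TUG1 alone held 6833 counts.

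Sequence opposite TUG1 and MALAT1 is shown first, because rows that lie wholly opposite these lncRNAs carry the comparisons below. TUG1 spans chr22:31365231-31375381 on the plus strand (ENSG00000253352), with exons over the whole span of 10151 nt when all its transcripts are joined, and the annotation classes it as protein-coding. The 2 genes opposite its distal part, on the minus strand, are known only by their identifiers. ENSG00000269987 (chr22:31372501-31374834) has 546 exonic nt around an intron of 1788 nt, and ENSG00000269972 (chr22:31373502-31373844) has 264 exonic nt around an intron of 79 nt. All of these exonic nucleotides lie opposite exons of TUG1. The exon ends are shown because they set the models apart from TUG1, whose joined exons leave no gap there. Each window is 28 nt long, reads 5′ to 3′ on the minus strand of GRCh37, and has the first or last 2 nt of the intron in capitals.
ENSG00000269987 intron start, chr22:31374692-31374719: tctccatattttgGCtctgctttcccct
ENSG00000269987 intron end, chr22:31372906-31372933: tgtatatacaaggAGgctagtcaaccag
ENSG00000269972 intron start, chr22:31373788-31373815: cctagtgggtgagGTgtgggttgttact
ENSG00000269972 intron end, chr22:31373711-31373738: agtcctcacggtgAGtctaattgcagca
The intron of ENSG00000269972 has the common GT and AG ends, and that of ENSG00000269987 starts with GC.

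MALAT1 is a single exon of 10434 nt at chr11:65265111-65275544 on the plus strand (ENSG00000251562). ENSG00000270117, a lncRNA of 1 exon at chr11:65265479-65266088 on the minus strand, lies wholly opposite it, near its 5′ end. The first 140 nt of its 610 nt are shown, 5′ to 3′ on the minus strand (chr11:65265949-65266088), because it is the only gene opposite MALAT1 with a row.
ENSG00000270117: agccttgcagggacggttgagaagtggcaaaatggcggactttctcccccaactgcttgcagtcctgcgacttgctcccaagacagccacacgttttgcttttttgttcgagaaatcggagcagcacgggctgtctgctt
The 610 nt are 53.1% G and C. TALAM1, the antisense RNA annotated opposite 8121 nt of MALAT1, has no row.

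**Figure D1:**
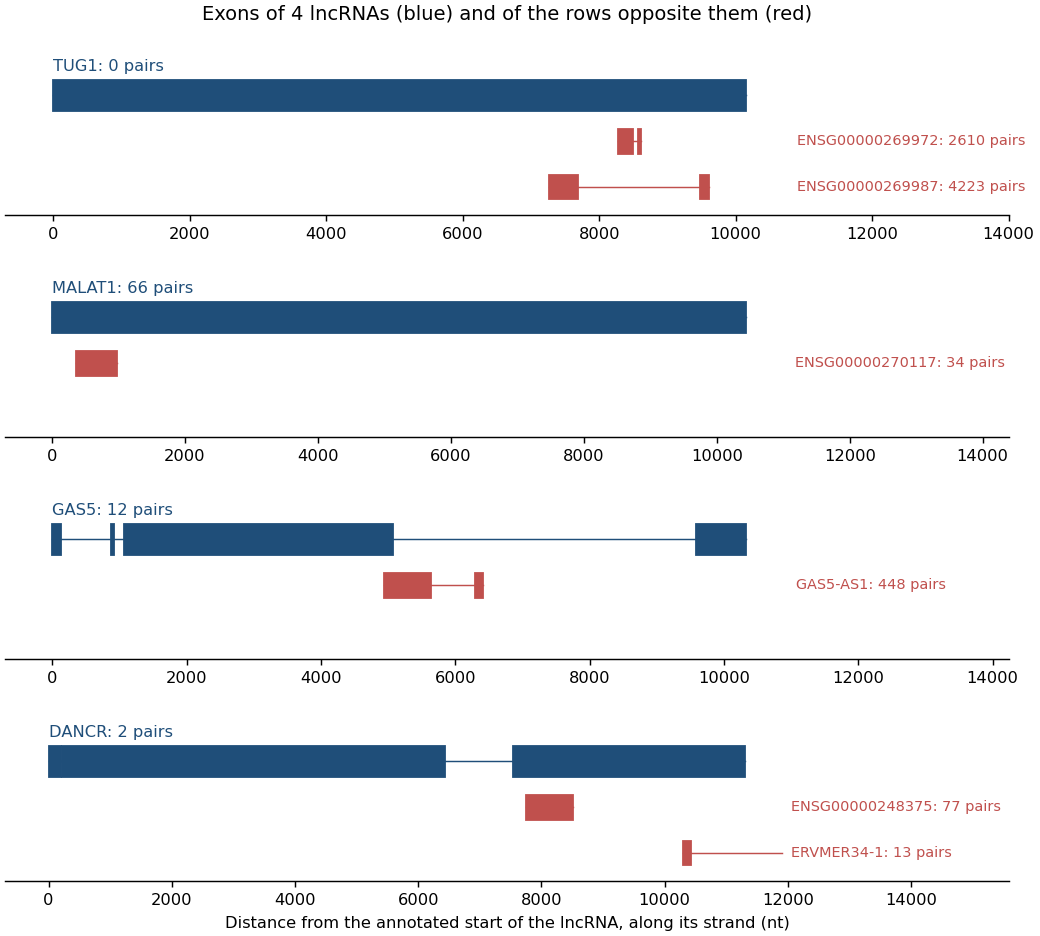
Exons of TUG1, MALAT1, GAS5 and DANCR (blue blocks) and of the rows opposite them (red blocks) against the distance in nt from the start of the lncRNA, with the listed count of each; lines join the exons of a gene, and parts far outside the lncRNA are not drawn. The 2 genes opposite the distal part of TUG1 list 4223 and 2610 pairs, while TUG1 lists 0.

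TUG1, whose transcripts have been tied to chromatin regulation, had a listed count of 0 over 10151 nt, which allows up to 0.296 counts per kb. The row opposite it with the most counts, ENSG00000269987, had 4223 counts (4097 to 4352), or 7734 per kb (7503 to 7971). The other, ENSG00000269972, had 2610 counts (2511 to 2712), or 9886 per kb (9511 to 10273). By their point values, the counts per kb were thus 26171-fold and 33452-fold the limit of 3 counts in TUG1. The counting error of the opposite rows is left out of these folds. Both rows are at 100% of the sum with TUG1. Their own densities, over annotated exonic lengths of 264 and 546 nt, differed by a ratio of 1.28 (1.22 to 1.34), beyond counting error. This ratio depends on these lengths, which are short beside the inserts of 150 to 250 nt. The exons of the 2 rows cover 7.98% of the exonic length of TUG1, from 7270 to 9603 nt after its start. Among the lncRNA rows, they ranked 29 (ENSG00000269972) and 37 (ENSG00000269987) in count per kb and 130 and 68 in count. Under the strand settings given, these pairs come from the strand of TUG1. MORC2, a chromatin ATPase gene that lies 470 nt upstream of TUG1 on the other strand, had 2 counts.

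MALAT1 had the highest count per kb of the 8, at 6.33 (4.89 to 8.05) from 66 counts (51.0 to 84.0). ENSG00000270117 had 34 counts (23.5 to 47.5), fewer than MALAT1, yet a higher count per kb of 55.7 (38.6 to 77.9) because it is short. The ratio per kb was 8.81 (5.65 to 13.5), and its share of the summed count of both rows was 34.0% (24.8% to 44.2%). If all 66 counts are instead divided by the 1703 nt of MALAT1 that lie opposite no exon, MALAT1 has 38.8 per kb. The ratio is then 1.44 (0.922 to 2.21). This fall was fixed by the shorter length, because the counts were not cut with it, so it gives no density outside the opposite exons. MALAT1 was the only one of the 5 lncRNAs with an opposite row whose own count was above the count opposite it. The 66 counts cannot be placed along the 10434 nt, of which 83.7% lie opposite exons annotated now, chiefly those of TALAM1.

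NEAT1 lies at chr11:65190245-65213011 on the plus strand (ENSG00000245532), with exons over 22767 nt, and no gene is annotated opposite its exons. It had the highest listed count of the 8, at 79 (62.5 to 98.5), which over its length was 3.47 per kb (2.75 to 4.32). Among rows with a known position, none could hold pairs from the strand of NEAT1 under the settings given. Its count per kb was below that of MALAT1 by a ratio of 1.82 (1.29 to 2.56), although its count was higher. The neighbouring annotated genes on both sides of NEAT1 have no row.

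GAS5 lies at chr1:173827697-173838020 on the minus strand (ENSG00000234741), with 4932 exonic nt, and carries the largest number of snoRNAs among these hosts (RefSeq names 11 within it). It had 12 counts (6.20 to 21.0), or 2.43 per kb (1.26 to 4.25). GAS5-AS1, a lncRNA on the plus strand at chr1:173831611-173833079, had 448 counts (407 to 491), or 550 per kb (501 to 604), which was 226 times that of GAS5 (128 to 441). GAS5-AS1 held 97.4% of the summed count of both (95.5% to 98.6%). Only 132 of its 814 exonic nt lie opposite annotated exons of GAS5, and the rest lies opposite sequence between those exons. With older transcripts alone, GAS5 ends at chr1:173833037 and the shared stretch falls to 43 nt. The rest of GAS5-AS1 then lies beyond the 3′ end of GAS5, not between its exons. The list does not divide a row's count along the gene, so the 448 counts cannot be placed on either part.

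DANCR lies at chr4:53578492-53589790 on the plus strand (ENSG00000226950) with 10179 exonic nt, and had 2 counts (0.242 to 7.22), or 0.196 per kb (0.0238 to 0.710). ENSG00000248375, a processed pseudogene of 751 nt at chr4:53586248-53586998 that lies opposite DANCR over its whole length, had 77 counts (60.8 to 96.2), or 103 per kb (80.9 to 128). Its ratio to DANCR per kb was 522 (140 to 4386), with the width set by the 2 counts of DANCR. With older transcripts alone, 291 of its 751 nt lie opposite DANCR. A processed pseudogene can share reads with its parent gene or other copies, so these 77 counts are uncertain in origin. ERVMER34-1, an endogenous retroviral envelope gene with 127 nt opposite DANCR, had 13 counts (6.92 to 22.2), or 3.23 per kb over its 4022 nt, and shares none with the older transcripts. Another opposite gene, ENSG00000286161 (556 nt), has no row.

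SNHG8, host of SNORA24, lies at chr4:119199858-119206471 on the plus strand (ENSG00000269893) and had 0 counts over 6614 nt, which allows 0.454 per kb. PRSS12, which encodes the secreted serine protease neurotrypsin, shares 2487 nt with it on the minus strand and had 48 counts (35.4 to 63.6), or 8.38 per kb. By this point value, PRSS12 was at 18.5-fold the limit of 3 counts per kb in SNHG8. The counting error of PRSS12 (6.18 to 11.1 per kb) is left out of this fold. The overlap depends on long transcripts in the newer annotation. With older transcripts alone, SNHG8 has 809 exonic nt, shares none with PRSS12, and its limit rises to 3.71 per kb.

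SNHG1 and SNHG5 have no gene opposite their exons. SNHG1, which RefSeq gives 9 snoRNAs, lies at chr11:62619450-62623425 on the minus strand (ENSG00000255717) and had 0 counts over 3976 nt, which allows 0.755 per kb. SLC3A2, the heavy chain of an amino acid transporter, starts 50 nt upstream of it on the other strand and had 11 counts, or 1.72 per kb. WDR74, a ribosome biogenesis gene 10168 nt downstream on the same strand, had 641 counts, or 151 per kb, so the rows beside SNHG1 were not all low. SNHG5, host of SNORD50A and SNORD50B, lies at chr6:86360209-86388650 on the minus strand (ENSG00000203875) and had 10 counts (4.80 to 18.4), or 0.793 per kb (0.380 to 1.46) over 12604 nt. SYNCRIP, an RNA-binding protein gene 6427 nt downstream of SNHG5, had 1 count.

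**Figure D2:**
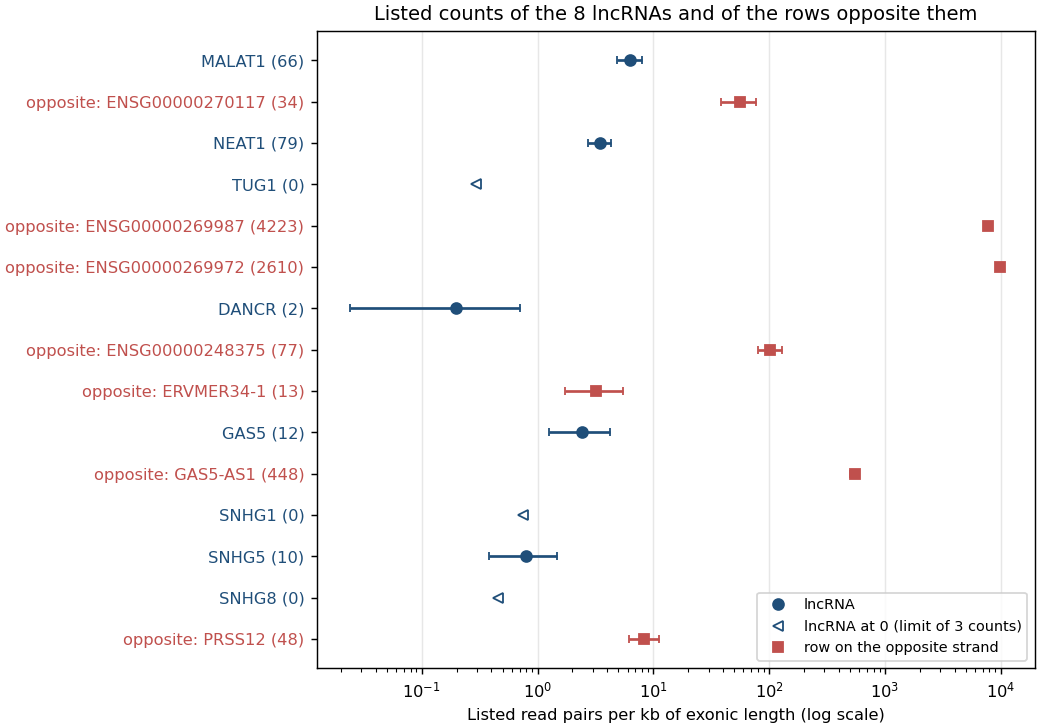
Listed read pairs per kb of exonic length (log axis) of the 8 lncRNAs (blue) and of 7 rows opposite their exons (red), with exact 95% Poisson intervals; counts are in parentheses and open triangles mark the limit of 3 counts for a lncRNA at 0. Each of the 7 rows drawn lies above its lncRNA per kb, from 3.23 for ERVMER34-1 to 9886 for ENSG00000269972.

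Across the 8 lncRNAs, 9 genes opposite the exons of 5 of them are considered, and 7 of these 9 have a row. All 7 of these rows had at least 10 counts, as did 56.8% of the 12801 rows of any kind with exons opposite exons. Of the 7, 6 had a higher count than the lncRNA, and 7 had a higher count per kb. Over all 4869 pairs of a lncRNA row and a row opposite it, these shares were 37.2% and 30.7%. In the rows opposite TUG1 and MALAT1, the per kb values depend on short exonic lengths, of 264, 546 and 610 nt. ERVMER34-1 (4022 nt) and PRSS12 (5725 nt) are longer. At MALAT1, the ratio also depends on the length taken for the lncRNA. By locus, these opposite rows held 97.8% of the summed count at DANCR (92.4% to 99.7%) and 34.0% at MALAT1. At TUG1 and SNHG8, where the lncRNA was at 0, they held 100% (at least 99.9% and 92.6%). Restricting the exons to older transcripts, an alternative chosen after the values were seen, left 5 opposite rows, those of MALAT1, TUG1 (2 rows), the DANCR pseudogene and GAS5-AS1.

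Ordered by count per kb, the 8 were MALAT1, NEAT1, GAS5, SNHG5 and DANCR, followed by the 3 at 0. MALAT1 lay above NEAT1, and GAS5 above SNHG5 by a ratio of 3.07 (1.21 to 7.92), beyond counting error. NEAT1 and GAS5 could not be told apart at this depth (ratio 1.43, 0.772 to 2.88), nor could SNHG5 and DANCR (4.04, 0.861 to 37.9). TUG1, SNHG8 and SNHG1 have no place relative to DANCR, since their limits of 0.296, 0.454 and 0.755 per kb all lie above its 0.196 per kb. The exonic length moves this order. With older transcripts alone, SNHG5 (2682 nt) rose to 3.73 per kb (1.79 to 6.86) and stood second, and none of the steps from MALAT1 to SNHG5, NEAT1 and GAS5 went beyond counting error. MALAT1 and NEAT1 keep their lengths, so the ratio between them is as given above. GAS5 then lay above DANCR by a ratio of 11.6 (2.59 to 107).

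At least 10 counts were listed for 4 of the 8 lncRNAs (50%), beside 28.4% of all 12805 lncRNA rows. The 8 are longer than most lncRNAs, and of the 1541 lncRNA rows within their range of exonic length 36.0% had at least 10 counts, a comparison added after the values were seen. With 8 genes, a count of 4 is not read as a difference from either share. None of the 8 reached the median count per kb of the lncRNA rows with at least 1 count, 12.6. An alternative chosen after the values were seen divided the whole count of each row by its exons that lie opposite no other exon. That median was then 12.2, and 1 of the 8, MALAT1 at 38.8 per kb, lay above it. Since the counts were not cut with the length, this value is not a density over those exons and does not place MALAT1. Over the whole exonic length, the lncRNAs were placed among the lncRNA rows with at least 1 count. There MALAT1 stood at percentile 40.1, NEAT1 at 31.3, GAS5 at 25.8, SNHG5 at 10.5 and DANCR at 1.45. By count alone they stood higher, with NEAT1 at percentile 73.3 and MALAT1 at 70.9. Among all rows in their length range, including those at 0, the median was 0.387 per kb, and MALAT1 stood at percentile 78.2, NEAT1 at 73.8, GAS5 at 70.1, SNHG5 at 58.2 and DANCR at 43.4. The place of these lncRNAs thus depends on the rows they are set beside.

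**Figure D3:**
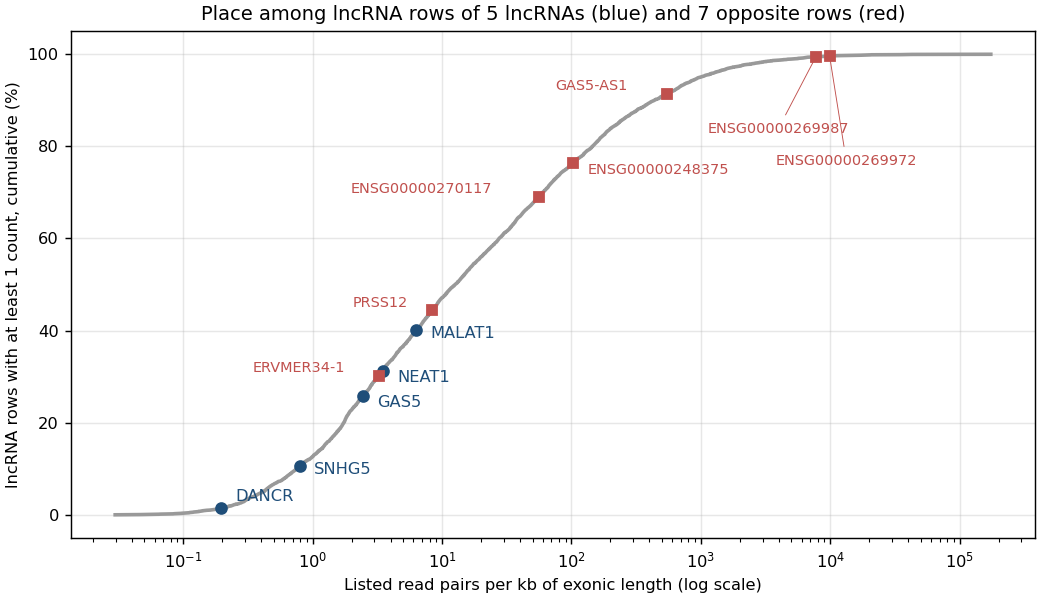
Cumulative share of lncRNA rows with at least 1 count (grey line, percent) against listed read pairs per kb (log axis), with the 5 lncRNAs that have counts (blue circles) and 7 opposite rows (red squares) marked at their place. The 5 lncRNAs lie between percentiles 1.45 and 40.1, and the rows opposite TUG1 lie at 99.4 and 99.5.

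The rows opposite TUG1 and MALAT1 belong to a kind of row that tends to have counts. Of 459 lncRNA rows with at least 90% of their exons opposite exons of another gene, 77.6% had at least 10 counts, with a median of 166 counts and 307 per kb. The 8316 lncRNA rows with no opposite exon had a median of 0, and 15.9% of them had at least 10 counts. NEAT1, SNHG1 and SNHG5 are of this second kind, and 2 of the 3 had at least 10 counts, SNHG5 with exactly 10. They are longer than most rows of this kind, whose median exonic length is 767 nt. Of lncRNA rows within the length range of the 8 lncRNAs, 21.7% without and 48.1% with opposite exons had at least 10 counts. Within the first kind, ENSG00000269972 stood at percentile 96.6 and ENSG00000269987 at 95.5 in count per kb, whereas ENSG00000270117 stood at 28.2. The row opposite MALAT1 was thus low for its kind and the 2 rows opposite TUG1 were high.

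RefSeq names 24 snoRNAs within the 5 hosts, and values were read for 2 of them, neither of which lies in SNHG1, SNHG5 or SNHG8. The annotation used for positions holds SNORA26 (122 nt) and the microRNA MIR4449 (66 nt) within DANCR and SNORD78 (65 nt) within GAS5, and all 3 rows were at 0, which allows up to 3 counts each. Among 1457 snoRNA rows, 82.6% were at 0 and 62 had at least 10 counts. Their median length of 104 nt is below the inserts of 150 to 250 nt selected for these libraries, and snoRNAs lack a poly(A) tail, so these libraries are not a measure of them. There were 84 lncRNA rows whose span holds an annotated snoRNA on the same strand, DANCR and GAS5 among them. Of these, 22 (26.2%) had at least 10 counts, and the median was 2. SNHG1, SNHG5 and SNHG8 are not picked out by this rule, so the 84 do not cover all snoRNA hosts. Of the 5 hosts described here, 2 had at least 10 counts.

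Other snoRNA host lncRNAs were listed for comparison. Of 15, 14 had a row, and 5 had at least 10 counts, near the 28.4% of all lncRNA rows and the 36.0% of those in the length range. The median was 7.5 counts or 1.92 per kb, beside a median of 6 counts or 0.495 per kb for the 8. SNHG7 was highest with 969 counts (198 per kb), while SNHG9 and SNHG11 were at 0. Of the 14, 6 have an opposite row, and in 5 of these the opposite sum was the higher one, as it was in 4 of 5 of the lncRNAs described here and in 40.9% of the 4213 lncRNA rows with an opposite row. For SNHG12 (70 counts beside 85), the gene opposite it shares only 8 nt. ZFAS1, with 3 counts, lay beside 601 counts opposite it, and SNHG14, with 396, beside 2299. SNHG7 was the exception, with 199 counts in DIPK1B opposite it. Of 10 other widely expressed lncRNAs, 6 had at least 10 counts, beside the same 28.4%, from 0 for CRNDE and MIR17HG to 14047 (152 per kb) for KCNQ1OT1. NORAD, an abundant cytoplasmic lncRNA with no opposite row, had 7 counts or 1.30 per kb.

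Genes of the structures and pathways in which these lncRNAs act were listed in the same way, and their counts are to be read beside the 44.2% of protein-coding rows with at least 10 counts. Of 7 paraspeckle proteins, which bind NEAT1, 4 had at least 10 counts, from 0 for RBM14 to 39 (5.05 per kb) for SFPQ, so NEAT1 at 3.47 per kb lay within their range. HNRNPK, with 3 counts, lay beside 8075 in HNRNPK-AS1. Of 7 nuclear speckle proteins, 5 had at least 10 counts, from 0.140 per kb for SRSF3 to 60.5 for SRSF2, and MALAT1 at 6.33 per kb lay within this range too. Of 8 snoRNP core proteins, which package the snoRNAs of the hosts, 4 had at least 10 counts, NHP2 was highest with 170 (115 per kb), and NOP58, NOP10 and GAR1 were at 0. Of 7 factors of nonsense-mediated decay, 3 had at least 10 counts, and UPF3B was highest with 4.74 per kb. All of these rows are read under the same strand settings, and if these hold, the count listed for a protein-coding gene is not its mRNA level. RN7SK and TERC, which lack a poly(A) tail or have a short one, were at 0.

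**Figure D4:**
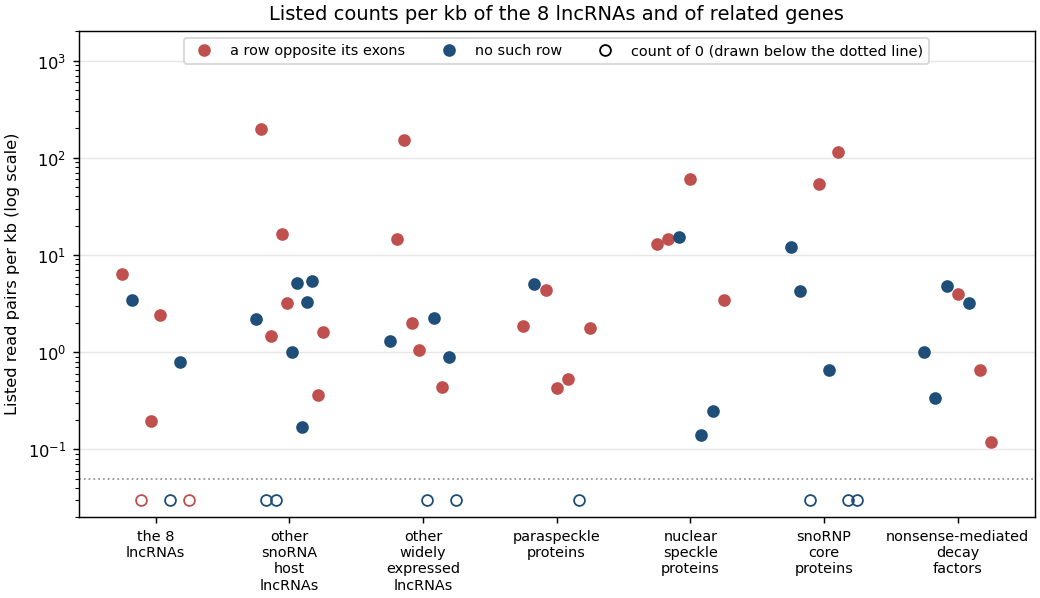
Listed read pairs per kb (log axis) of the 8 lncRNAs and of genes in 6 lists, with red for genes that have a row opposite their exons, blue for those without, and open circles below the dotted line for counts of 0. The 8 lncRNAs lie between 0 and 6.33 per kb, within the range of the other snoRNA hosts (0 to 198).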

How the data were processed

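The authors deposited whole-number counts of read pairs per gene, without normalization, with the 2 replicates of LNCaP cells in 1 column, so the replicates could not be compared. Per the labels and methods, reads were base-called with CASAVA 1.8, then passed through Trimmomatic 0.30, placed on hg19 by TopHat 2.0.12 with Bowtie2 2.2.3, sorted by SAMtools and counted per gene by htseq-count 0.6.1p1 on a published lncRNA annotation. No further per-sample columns were left unused (0). Ensembl identifiers were matched without version to GENCODE v44lift37 on GRCh37, the same build but a newer annotation than the authors' own, for 55538 rows; 6259 XLOC rows have no position here. For exonic length, all annotated exons of a gene were joined, and an opposite gene shares at least 1 exonic nt on the other strand. htseq-count leaves pairs that fall on several genes of 1 strand uncounted. CPM uses the total on genes (9.495 M pairs), whose median row with at least 1 count has 12 pairs, which limits the precision. Intervals are exact Poisson, Clopper-Pearson and conditional binomial intervals at 95%, and no test was run. Functions for intervals and overlaps were tested on simulated data. Sequences were read from the GRCh37 genome, and snoRNA names from RefSeq. Named are the 8 lncRNAs, the genes opposite them, the nearest genes on each side, and snoRNA and miRNA rows within them. In each list, the highest and lowest gene and those a small count refers to are named. ZFAS1, SNHG12, SNHG14, NORAD, HNRNPK, KLK3, KRT8, KRT18, HOXB13 and MIR4449 were named after their values were seen. Some genes and sequences within this rule are not reported here, and the counts and shares of opposite rows leave such genes out. The 8 lncRNAs and the lists were chosen with earlier results of these data known. Alternatives were the definition of exonic length, the minimum count, the background rows, the denominator of CPM, the shared length and the rule for hosts. Python 3.11.15 with numpy 2.4.6, pandas 2.3.3, scipy 1.17.1 and matplotlib 3.10.9 was used.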

Additional observations from a re-analysis of the deposited data

How the results depend on the processing

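The replicates are summed, so no value has a replicate error, and leaving out a replicate was not possible. No paired analysis was possible because there is 1 condition and 1 column. At a minimum of 100 counts, 0 of the 8 lncRNAs remained, beside 5 at a minimum of 1. Against the median of all lncRNA rows, which is 0, 5 lncRNAs lay above it. Against the median of rows with at least 1 count, 1 (MALAT1) lay above it when whole counts were divided by exons not opposite other exons. Hosts with at least 10 counts numbered 3 of 9 (33.3%) when at least 2 snoRNAs were asked for. They numbered 49 of 153 (32.0%) with snoRNAs on either strand, beside 22 of 84 (26.2%). SNHG1, SNHG5 and SNHG8 are not among the 84. GAS5, with 1 snoRNA in the annotation used, is not among the 9. With older transcripts, 5 opposite rows had at least 10 counts. Of the 5 lncRNAs with counts, the count per kb stayed within its counting interval in 4 with older transcripts and in 4 with the longest transcript, the exception in both being SNHG5 (3.73 and 1.73 per kb). With whole counts divided by exons that lie opposite no other exon, the count per kb stayed within its counting interval in 4. The exception was MALAT1 (38.8 per kb), whose move was fixed by its short remaining length. Listed counts of 0 to 2 are at the limit of the depth. The CPM of the 5 lncRNAs with counts followed its denominator. Without the 3 highest rows it stayed within its counting interval in 1 and with uniquely placed pairs in 0, and that of MALAT1 went from 6.95 to 13.5 and 0.444.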
